A study of Mus musculus with 13 samples.

Results

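Liver RNA levels of 35 genes of fatty acid oxidation and ketogenesis were read in 13 mice that differed in 1 amino acid of the protein deacetylase SIRT1. The genes were taken by name from a list that ran from the receptor Ppara to the ketone body enzyme Bdh1, and each was represented by its brightest probe. All 35 were found on the array, 2 of them under an older name (Hadh as Hadhsc and Eci1 as Dci). They are 35 of 20392 genes tested, and all 35 were well above background on all 13 arrays.

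The study asked how the state of threonine 522 of SIRT1, which can be phosphorylated, bears on energy metabolism in mice. Male mice on a C57BL/6 background, all of which ate a western-style diet high in fat for 5 months, gave 1 liver and 1 array each. The 5 WT mice had wild-type SIRT1, the 5 TAKI mice carried the SIRT1 TA KI allele (threonine replaced by alanine, which cannot be phosphorylated), and the 3 TEKI mice carried the SIRT1 TE KI allele (threonine replaced by glutamate, which carries a negative charge). No lean diet group was analysed here, so every value belongs to the fatty diet. The zygosity of the alleles, the age at the start of the diet and whether the mice had been fasted are not given in the sources used here.

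Fatty acids enter the mitochondria of hepatocytes as carnitine esters and are shortened there in repeated cycles of dehydrogenation, hydration, a second dehydrogenation and thiolysis, and much of the acetyl-CoA made in fasting leaves the liver as ketone bodies. Very long and branched chains are shortened first in peroxisomes, and omega-oxidation by CYP4A enzymes in the microsomes makes dicarboxylic acids. PPARalpha, a nuclear receptor that fatty acids activate, drives transcription of many of these genes, and SIRT1 is known to act on PPARalpha and on its coactivator PGC-1alpha in liver.

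None of the 35 genes passed the threshold (adjusted p under 0.05, limma with Benjamini-Hochberg adjustment over 20392 genes) in any comparison of genotypes. For TAKI minus WT, 0 of 35 were called where 2.77% of all genes were, and 1 had an unadjusted p under 0.05 against 2943 genes in all (14.4%). For TEKI minus WT, 0 of 35 were called against 0.0049% of all genes, and 0 had an unadjusted p under 0.05 against 2332 genes. For TEKI minus TAKI, 0 of 35 were called against 3.4%, and 1 had an unadjusted p under 0.05 against 2429 genes. The same short-chain enzyme gene, Acads, gave both of those unadjusted values.

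Most differences were small, and the spread between mice sets how small a change could be seen. In log2 units, 30 of the 35 differed by less than 0.25 between TAKI and WT (65.1% of all genes did), 32 between TEKI and WT (60.0%) and 29 between TEKI and TAKI (60.8%). All genes include many dimmer than any of the 35. The median pooled SD within genotype was 0.29 over all genes. It was 0.18 over genes at least as bright as the dimmest of the 35, and their shares under 0.25 are not given here. The median difference of the 35 genes was 0.0003 for TAKI minus WT (all genes 0.0038), 0.05 for TEKI minus WT (all genes 0.077) and 0.095 for TEKI minus TAKI (all genes 0.067). The 95% interval of the difference lay within 0.5 of 0 for 25, 22 and 15 of the 35 genes in these comparisons, and within 1 of 0, which is 2-fold, for 33, 32 and 33. The exceptions at 1 were Acot3 and Pdk4 in all of them and Acot1 in TEKI minus WT. A p above the threshold does not show that these levels were alike.

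**Figure D1:**
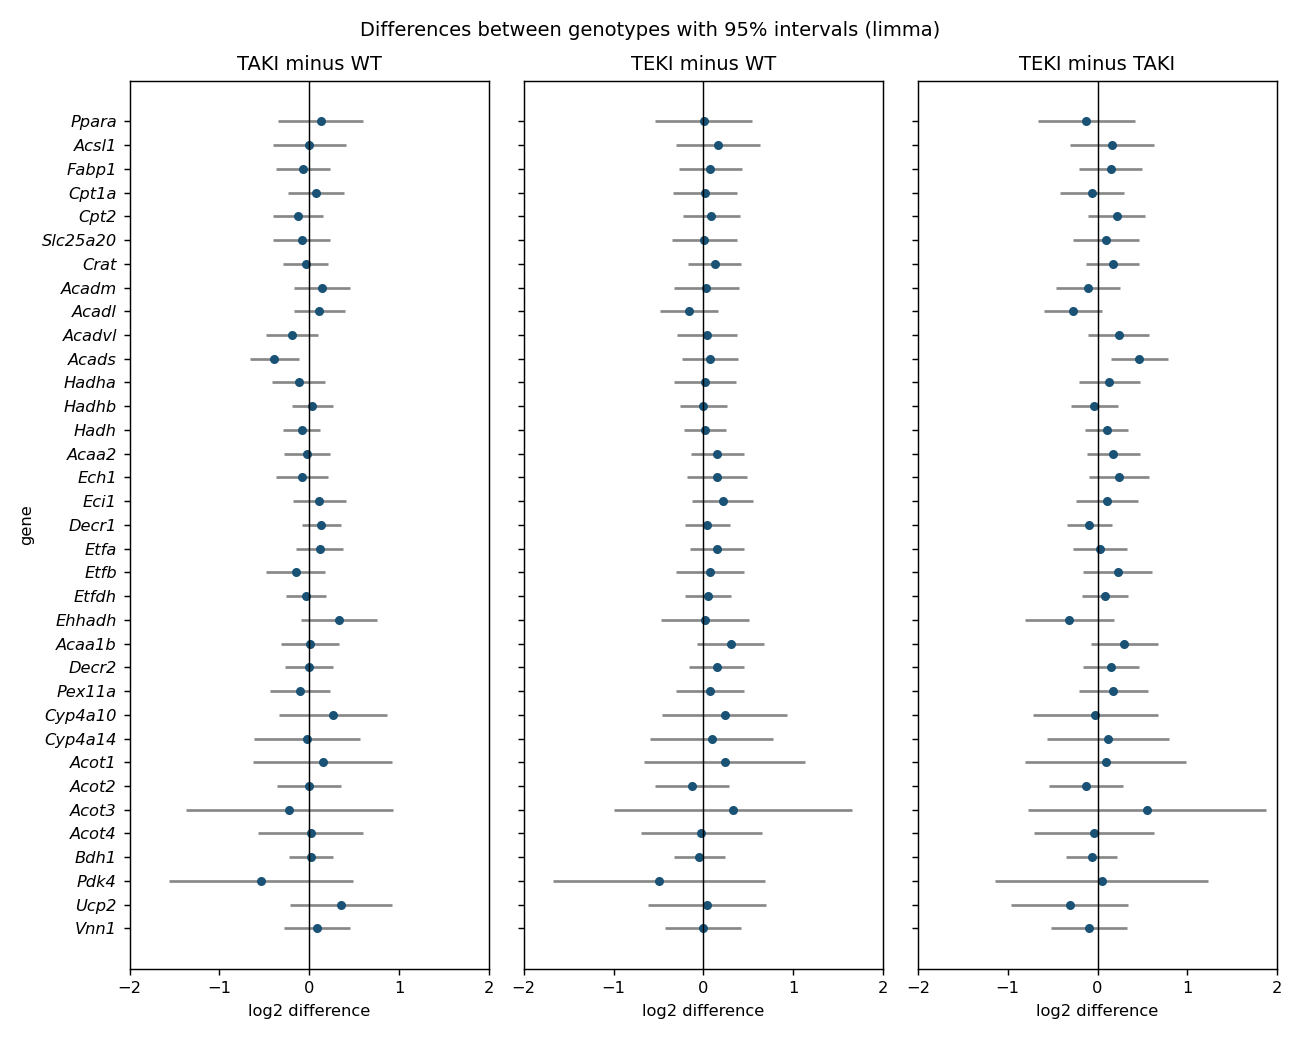
Log2 differences of the 35 genes (rows, in order of role) for the 3 comparisons of genotypes (panels); points are limma estimates and lines their 95% intervals. Acads is the only gene whose interval leaves out 0, in both comparisons with TAKI, and Acot3 and Pdk4 have the widest intervals.

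Ppara, the regulator, had levels that overlapped fully between genotypes. A level here is the log2 of the spot intensity minus the 75th percentile of its array, so levels of different genes cannot be set against each other. Ppara read 4.46, 4.43, 4.92, 4.79 and 5.11 in WT replicates 1 to 5, 4.70, 4.16, 5.30, 5.08 and 5.09 in TAKI, and 4.62, 4.59 and 5.01 in TEKI. The TAKI group held both the lowest liver, replicate 2, and the highest, replicate 3. The difference was 0.13 ± 0.22 (SE) for TAKI minus WT and 0.00 ± 0.25 (SE) for TEKI minus WT (limma adjusted p = 0.867 and 0.999).

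The genes that activate fatty acids and carry them into mitochondria lay between -0.13 (Cpt2) and 0.07 (Cpt1a) in TAKI minus WT, and all 6 were between 0.0095 and 0.16 in TEKI minus WT. They are Acsl1, an acyl-CoA synthetase; Fabp1, the abundant fatty acid binding protein of liver; Cpt1a and Cpt2, the outer and inner carnitine palmitoyltransferases; Slc25a20, the carnitine carrier; and Crat, carnitine acetyltransferase. Cpt1a, which sets the rate of entry, read 5.64, 5.59, 5.85, 6.03 and 5.59 in WT replicates 1 to 5, 5.73, 5.46, 6.02, 5.89 and 5.97 in TAKI, and 5.49, 5.77 and 6.00 in TEKI. The 3 ranges lie on top of each other. Its difference was 0.07 ± 0.14 (SE) in TAKI and 0.02 ± 0.16 (SE) in TEKI against WT (limma adjusted p = 0.882 and 0.985), and a second Cpt1a probe gave 0.16 and 0.10.

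Among the 8 genes of the mitochondrial cycle, Acads (short-chain acyl-CoA dehydrogenase) had the most negative TAKI minus WT difference. Its probe is shown because it is the only one of the 35 with an unadjusted p under 0.05. The file places it at chr5:114331711-114331770, minus strand, in the mm7 build that the array headers name, and 1 of its 3 reading frames is open over all 60 bases.
Acads probe: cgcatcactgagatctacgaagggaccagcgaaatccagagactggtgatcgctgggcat
Acads read 4.12, 3.99, 4.38, 4.27 and 4.39 in WT replicates 1 to 5, 4.03, 4.14, 3.72, 3.62 and 3.69 in TAKI, and 4.17, 4.40 and 4.34 in TEKI. All 5 TAKI livers were under the WT mean, 3 of them under every WT liver, and the 2 others lay within the WT range. The difference was -0.39 ± 0.13 (SE, 95% interval -0.66 to -0.11, 0.764-fold; limma adjusted p = 0.148). TEKI livers were all above all TAKI livers, by 0.46 ± 0.15 (SE, limma adjusted p = 0.149), and Acads was the 1 gene of 35 whose groups did not overlap in that comparison, against 8.23% of all genes. No member's groups were apart in TAKI minus WT (7.38% of all genes) or in TEKI minus WT (3.65%). TEKI minus WT for Acads was 0.07 ± 0.15 (SE, limma adjusted p = 0.899).

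The low Acads livers shared a slide. TAKI replicates 1 and 2, on slide 4, read 4.03 and 4.14, and TAKI replicates 3, 4 and 5, on slide 5, read 3.72, 3.62 and 3.69. Neither of those slides held a WT or TEKI array, so an effect of slide and one of the TAKI allele cannot be told apart here. With arrays weighted by quality, Acads passed in TAKI minus WT (-0.45, limma adjusted p = 0.0185), where 2253 of all 20392 genes were called. It also passed in TEKI minus TAKI (0.58, limma adjusted p = 0.0464), where 891 genes were called. Acads was the 1 member of 35 called in each. Over all alternatives its limma adjusted p lay between 0.0185 and 0.345 for TAKI minus WT. With each array scaled to its median, TEKI minus TAKI for Acads was 0.21 (limma adjusted p = 0.760). The median of all genes in that comparison moved as well, from 0.067 to -0.19.

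No other dehydrogenase had an unadjusted p under 0.05. Acadvl, for very long chains, read 7.73, 7.40, 7.81, 7.77 and 7.99 in WT replicates 1 to 5, 7.64, 7.44, 7.73, 7.36 and 7.57 in TAKI, and 7.57, 7.70 and 8.08 in TEKI. Its TAKI range reached lower than WT by 1 liver, replicate 4, and the difference was -0.19 ± 0.13 (SE, limma adjusted p = 0.594). Acadl, for long chains, read 4.04, 4.15, 3.98, 4.45 and 4.25 in WT replicates 1 to 5, 4.21, 4.04, 4.36, 4.33 and 4.49 in TAKI, and 3.92, 3.81 and 4.31 in TEKI. Of the TEKI livers 2 were under every WT and TAKI liver, while the remaining one lay among them, and the differences were -0.16 ± 0.15 (SE, limma adjusted p = 0.722) against WT and -0.27 ± 0.15 (SE, limma adjusted p = 0.526) against TAKI. With normexp background correction, Acadl passed in TEKI minus TAKI (-0.50, limma adjusted p = 0.0363). It was the 1 member of 35 called there, where 4109 of all 20392 genes were called. Acadm, for medium chains, differed by 0.14 ± 0.14 (SE) in TAKI minus WT.

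The later steps of the cycle gave values within 0.18 of 0 in each comparison. Hadha and Hadhb, the subunits of the trifunctional protein, differed by -0.12 and 0.03 in TAKI minus WT and by 0.02 and -0.003 in TEKI minus WT, and Hadh, the short-chain hydroxyacyl dehydrogenase, by -0.08 and 0.02. Another Hadha probe gave 0.33 ± 0.30 (SE) and 0.63 ± 0.35 (SE), with limma adjusted p of 0.722 and 0.525. Acaa2, the mitochondrial thiolase, read 8.63, 8.48, 8.82, 8.71 and 8.98 in WT replicates 1 to 5, 8.79, 8.54, 8.84, 8.59 and 8.76 in TAKI, and 8.71, 8.83 and 9.11 in TEKI. Its TEKI values overlapped with WT, except for replicate 3, and TEKI minus WT was 0.16 ± 0.14 (SE, limma adjusted p = 0.693).

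Chains with double bonds need helper enzymes, and of these 3 genes none passed in any comparison. TEKI minus WT was 0.22 for Eci1, 0.15 for Ech1 and 0.04 for Decr1, and with each array scaled to its median it was -0.20, -0.26 and -0.37. That scaling moved the median of all genes as well, from 0.077 to -0.33, so the change of sign is not particular to these genes. Eci1, an enoyl-CoA isomerase, read 6.27, 6.12, 6.65, 6.46 and 6.74 in WT replicates 1 to 5, 6.57, 6.41, 6.80, 6.38 and 6.63 in TAKI, and 6.49, 6.71 and 6.79 in TEKI. All 3 TEKI livers were above the WT mean and 1 was above every WT liver (difference 0.22 ± 0.16, SE, limma adjusted p = 0.619). Ech1, the dienoyl-CoA isomerase, read 5.81, 5.44, 5.96, 5.79 and 6.03 in WT replicates 1 to 5, 5.76, 5.66, 5.85, 5.48 and 5.86 in TAKI, and 5.73, 5.97 and 6.18 in TEKI. TEKI replicates 2 and 3 were above every TAKI liver, and TEKI minus TAKI was 0.24 ± 0.15 (SE, limma adjusted p = 0.601). Decr1, the mitochondrial dienoyl-CoA reductase, read 1.19, 1.20, 1.11, 1.11 and 1.26 in WT replicates 1 to 5, 1.44, 1.12, 1.44, 1.23 and 1.32 in TAKI, and 0.98, 1.37 and 1.30 in TEKI. Of its TAKI livers 3 were above every WT liver, and TAKI minus WT was 0.14 ± 0.10 (SE, limma adjusted p = 0.617). A second Decr1 probe gave 0.42 ± 0.14 (SE, limma adjusted p = 0.174 over probes), so the 2 probes agreed in sign and not in size.

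Electron transfer from the dehydrogenases to the respiratory chain uses Etfa, Etfb and Etfdh. Their differences were 0.12, -0.15 and -0.03 in TAKI minus WT and 0.15, 0.07 and 0.05 in TEKI minus WT, each with a limma adjusted p above the threshold (lowest 0.725 for TEKI minus WT). Another Etfdh probe gave 0.27 ± 0.17 (SE) in TAKI minus WT, opposite in sign.

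In the peroxisome and the microsome, the genotypes overlapped for all 6 genes. Ehhadh, the peroxisomal bifunctional enzyme, read 5.92, 6.09, 6.24, 6.15 and 6.28 in WT replicates 1 to 5, 6.66, 5.93, 7.14, 6.35 and 6.25 in TAKI, and 6.00, 6.40 and 6.06 in TEKI. TAKI replicate 3 stood highest and TAKI replicate 2 lay at the low end of WT, and the difference was 0.33 ± 0.19 (SE, limma adjusted p = 0.505). Acaa1b, a peroxisomal thiolase, read 7.82, 8.09, 8.42, 8.30 and 8.68 in WT replicates 1 to 5, 8.34, 8.17, 8.50, 8.25 and 8.10 in TAKI, and 8.48, 8.62 and 8.60 in TEKI. The TEKI livers were close together inside the WT range, with TEKI minus WT of 0.31 ± 0.17 (SE, limma adjusted p = 0.501). Decr2, the peroxisomal reductase, and Pex11a, a protein of peroxisome division, differed by -0.0024 and -0.10 in TAKI minus WT.

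The omega-hydroxylase genes Cyp4a10 and Cyp4a14, which respond strongly to PPARalpha in mouse liver, ranged 2.78-fold and 2.82-fold over the 13 livers. Cyp4a10 read 6.36, 6.06, 6.60, 6.56 and 7.11 in WT replicates 1 to 5, 7.25, 6.36, 7.46, 5.99 and 6.94 in TAKI, and 6.69, 6.78 and 6.86 in TEKI. Cyp4a14 read 8.38, 8.17, 8.77, 8.90 and 9.05 in WT replicates 1 to 5, 9.03, 8.34, 9.23, 7.74 and 8.80 in TAKI, and 8.57, 8.69 and 8.98 in TEKI. In both genes TAKI held the highest liver, replicate 3, and the lowest, replicate 4, and the TEKI livers sat between them. Cyp4a10 differed by 0.26 ± 0.27 (SE) in TAKI minus WT and by 0.24 ± 0.32 (SE) in TEKI minus WT (limma adjusted p = 0.750 and 0.837), and Cyp4a14 by -0.03 ± 0.27 (SE) and 0.09 ± 0.31 (SE). The Cyp4a10 gene was read by 3 probes, which gave 0.26, 0.22 and 0.32 in TAKI minus WT. The first of these, the brightest, gave the Cyp4a10 levels above and the correlations below. The second lies at chr4:114901988-114902047, plus strand, in mm7, and did not give those values. It is shown as an example of what hybridised, since Cyp4a genes lie in a cluster of close copies and cross-hybridisation was not tested.
Cyp4a10 probe: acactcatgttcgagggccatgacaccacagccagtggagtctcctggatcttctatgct

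The acyl-CoA thioesterases Acot1 to Acot4, which free fatty acids from CoA and lie together on chromosome 12, included Acot3, which varied most of the 35 within genotypes (SD 0.90; Pdk4 next with 0.80 and Acot1 with 0.60). Acot3 ranged 10.5-fold, from -0.77 in TAKI replicate 2 to 2.63 in WT replicate 5, with the other WT livers between -0.31 and 0.62. Acot1 ranged 3.42-fold and Acot4 2.93-fold, with WT replicate 5 highest in Acot4. For Acot3, TAKI minus WT changed sign when WT replicate 5 was left out, from -0.22 ± 0.53 (SE) to 0.24. TEKI minus WT kept its sign, at 0.33 with WT replicate 5 and 0.79 without it (limma adjusted p = 0.889 and 0.418). Acot1 differed by 0.15 ± 0.36 (SE) and Acot2 by 0.0003 ± 0.16 (SE) in TAKI minus WT. Acot1 and Acot2 are near-identical in sequence, so their probes may share signal.

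Pdk4, the kinase that turns pyruvate dehydrogenase off when fat is burned, varied 5.63-fold. Pdk4 read 2.32, 1.63, 1.03, 1.35 and -0.17 in WT replicates 1 to 5, 0.12, 1.12, 1.25, 0.57 and 0.38 in TAKI, and 0.41, 1.88 and -0.09 in TEKI. The WT group alone spanned the whole range, with replicate 1 highest and replicate 5 lowest of all 13 livers. The difference was -0.54 ± 0.47 (SE, limma adjusted p = 0.685) in TAKI and -0.50 ± 0.54 (SE, limma adjusted p = 0.779) in TEKI. Without WT replicate 5, the differences were -0.89 and -0.85 (limma adjusted p = 0.324 and 0.395). Leaving out this lowest liver raises the WT mean, and leaving out replicate 1, the highest, moves the differences the other way. Bdh1, which makes beta-hydroxybutyrate, the main circulating ketone body, read 6.79, 6.71, 6.90, 6.97 and 7.02 in WT replicates 1 to 5, 6.73, 6.75, 7.19, 6.93 and 6.89 in TAKI, and 6.63, 6.89 and 6.98 in TEKI. Its 3 groups overlapped, with differences of 0.02 ± 0.11 (SE) and -0.05 ± 0.13 (SE). Ucp2, a mitochondrial carrier, and Vnn1, a pantetheinase under PPARalpha, differed by 0.35 ± 0.26 (SE) and 0.09 ± 0.17 (SE) in TAKI minus WT.

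**Figure D2:**
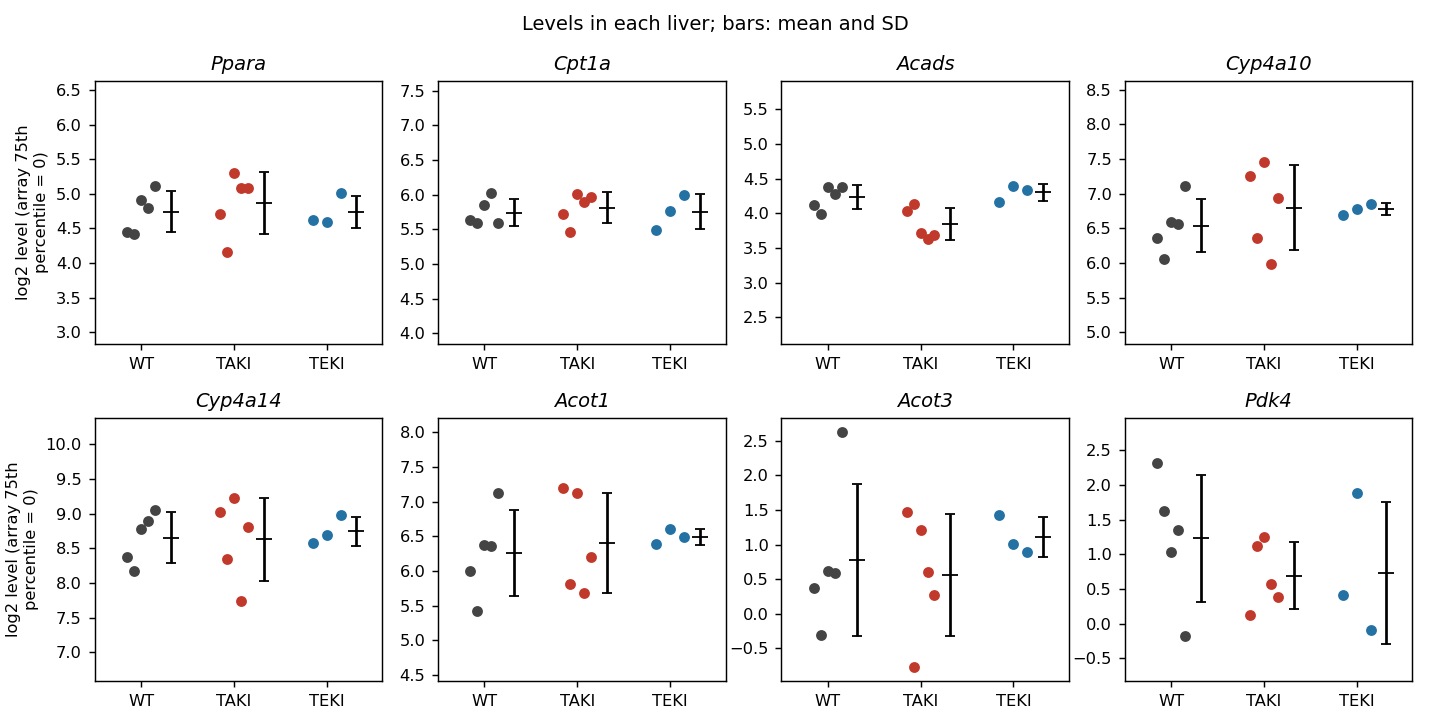
Log2 level, with the array's 75th percentile set to 0 (y axis, same span of 3.8 in every panel) for 8 of the genes in each liver, by genotype (x axis); dots are single livers and the bars beside them are the mean and SD (n = 5, 5 and 3). The genotypes overlap in every panel apart from TAKI and TEKI in Acads, and WT replicate 5 stands high in Acot3 and low in Pdk4.

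Other genes of the same pathways, 49 in a list set up alongside the members, showed the same lack of calls. The counts were 0 of 49 in each comparison, with 1, 0 and 2 genes at an unadjusted p under 0.05, and medians of 0.003, 0.072 and 0.057. In TAKI minus WT the smallest p belonged to the fatty acid transporter gene Slc27a4 (-0.32 ± 0.11, SE, limma adjusted p = 0.196), with Cyp4v3 next (0.29 ± 0.18, SE, adjusted p = 0.542). In TEKI minus TAKI, Pdk2, a pyruvate dehydrogenase kinase, differed by 0.29 ± 0.12 (SE, limma adjusted p = 0.380).

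Beyond genotype, the 35 genes tended to be high or low together in a given liver. Against each gene's mean over 13 livers, 33 of 35 were higher in TAKI replicate 3, 30 in WT replicate 5 and 30 in TEKI replicate 3, while 4 were higher in WT replicate 2 and 4 in TAKI replicate 2. The median deviation of the 35 was 0.21, 0.20, 0.20, -0.24 and -0.21 in these livers, and that of all genes was 0.02, 0.07, 0.07, -0.08 and -0.03, so the median of all genes had the same sign there and was smaller. The mean deviation of 5 unsaturated hepatocyte markers (Apoa1, Ttr, Cps1, Tat and Apoh) was 0.10, 0.24, 0.44, -0.20 and -0.21 in the same order. In 3 other livers the members and the markers had opposite signs: TEKI replicate 2 (28 of 35 higher, median 0.09, markers -0.18), WT replicate 3 (24 higher, 0.08, markers -0.05) and WT replicate 4 (21 higher, 0.06, markers -0.07). Members and all genes had opposite signs in TEKI replicate 1 (8 of 35 higher, median -0.08, all genes 0.11), WT replicate 3 (all genes -0.07) and TEKI replicate 2 (all genes -0.03). They had the same sign in all remaining livers, among them WT replicate 1 and TAKI replicate 4, where 8 and 9 of 35 were higher. In whole liver, fewer hepatocytes and less RNA per hepatocyte cannot be told apart, and the part of the hepatocyte share in these shifts was not tested. The pooled SD within genotype had a median of 0.22 over the 35 genes, against 0.29 over all genes and 0.18 over the 8635 genes at least as bright as the dimmest of the 35, and ran from 0.12 (Hadh) to 0.90 (Acot3).

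**Figure D3:**
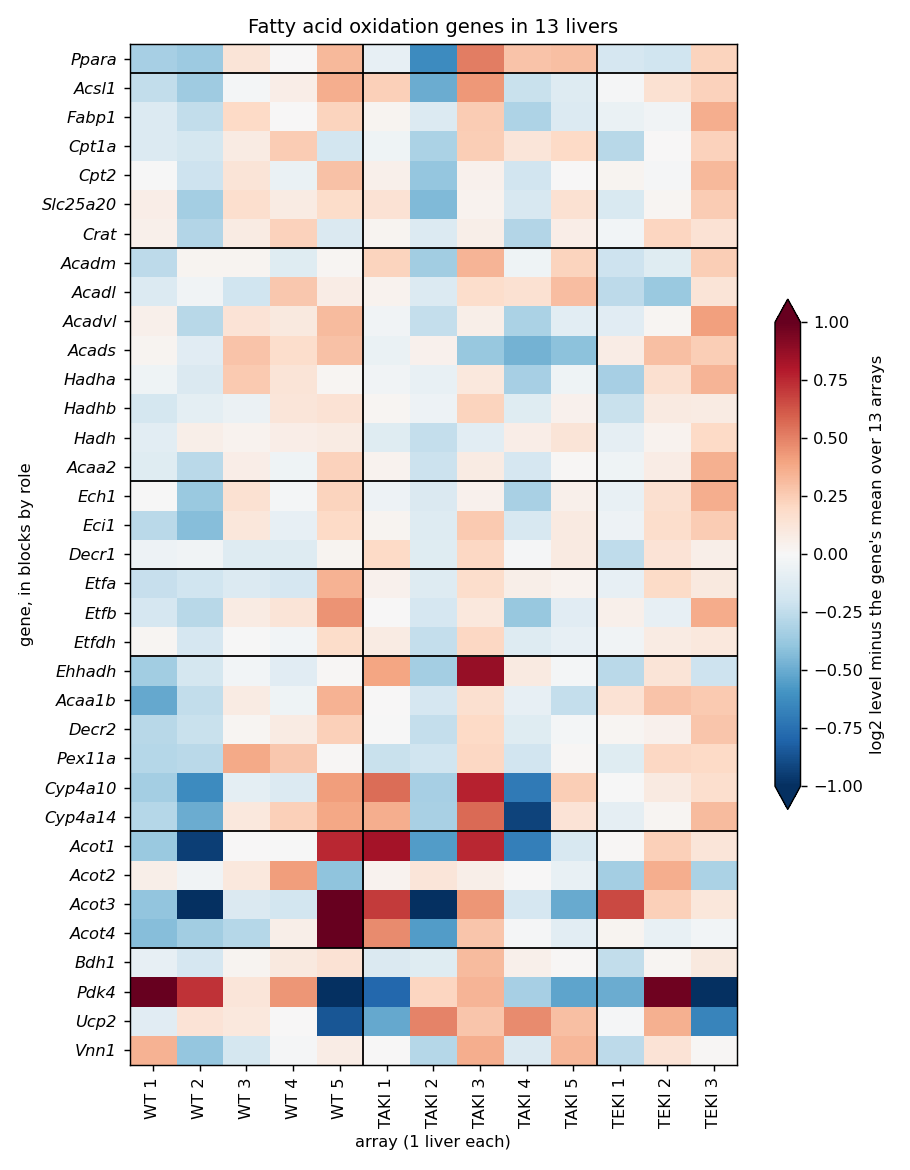
Deviation of each of the 35 genes (rows, in blocks by role) from its mean over 13 arrays, for each liver (columns, blocks by genotype); red is higher and blue lower, on a log2 scale cut at 1 in either direction. Whole columns are mostly blue for WT replicate 2 and TAKI replicate 2 and mostly red for TAKI replicate 3, and Pdk4 and Ucp2 are blue in WT replicate 5, where most other genes are red.

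Cyp4a14 was compared with the other 34 genes over the 13 livers, since it responds strongly to PPARalpha. Its correlation with Cyp4a10 was r = 0.92 (permutation p = 2e-05, 100000 resamples, two-sided; Spearman rho 0.91, permutation p = 8e-05), and with Acot1 r = 0.87 (permutation p = 1e-04; rho 0.86, permutation p = 0.00035). Fabp1, Acsl1 and Etfb followed with r of 0.83, 0.82 and 0.81. Cyp4a10 and Cyp4a14 belong to the cluster of close copies named above, and how far cross-hybridisation adds to their correlation was not tested. Of the 34 correlations, 31 were positive, with a median of 0.58 against 0.11 over all 20346 other genes, and 5 were over 0.8, as were 0.462% of all genes. Adjusted over the 34 relations, 16 passed by Pearson's r and 20 by Spearman's rho (Cyp4a10 adjusted permutation p = 0.00068, Acot1 0.0017); adjusted over the correlations of Cyp4a14 with all genes, none did (Cyp4a10 0.0678, Acot1 0.105), where 20 of 34 and 15.7% of all genes had an unadjusted p under 0.05. Pdk4 (r = -0.32, permutation p = 0.290) and Ucp2 (r = -0.53, permutation p = 0.0615) had negative values that did not pass.

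The relation with Cyp4a10 and Acot1 held within genotypes and without the extreme livers. On deviations from the genotype means, r was 0.96 and 0.88, and without the 2 livers farthest from the median of Cyp4a14 (TAKI replicate 4 and WT replicate 2; 11 livers left) it was 0.88 and 0.86. No slide held more than 4 arrays, too few for a value within slides. Cyp4a14 also followed the mean of the 5 hepatocyte markers (r = 0.72). With levels taken relative to those markers, an alternative chosen after the data were seen, only Cyp4a10 (r = 0.84) and Acot1 (r = 0.77) still passed over the 34 relations, the median fell to 0.17 (all genes -0.15), and 14 relations no longer passed. Quantile normalization left the same 2 genes.

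**Figure D4:**
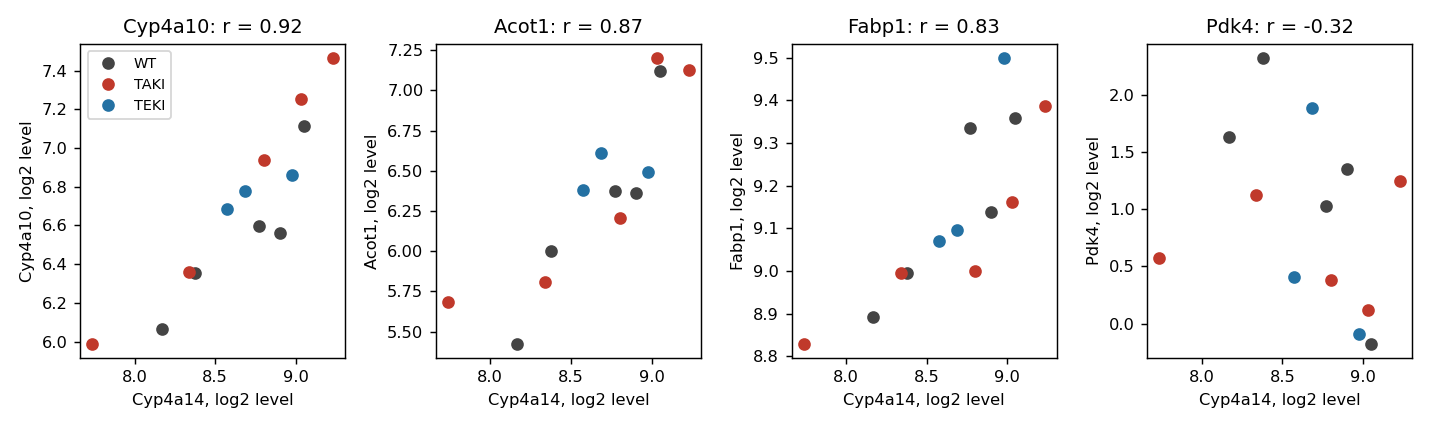
Log2 levels of Cyp4a10, Acot1, Fabp1 and Pdk4 (y axes) against that of Cyp4a14 (x axes) in the 13 livers, coloured by genotype, with Pearson's r over all livers. The first 3 climb with Cyp4a14 (r = 0.92, 0.87 and 0.83), with the genotypes mixed along the line, and Pdk4 does not (r = -0.32).

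PPARalpha binds with RXR to direct repeats of the letters AGGTCA spaced by 1 base, so the promoters of the 35 genes were searched for that pattern (any base in the gap, both strands, from 250 bases before to 50 after the start of the gene). RefSeq promoters of build GRCm38.p6 were matched for 29 of the 35 genes, with 32 promoters, and not for Acaa2, Crat, Cyp4a10, Cyp4a14, Decr1 and Vnn1. None of the 32 held the full pattern, which 0.0396% of all 32851 promoters do. Fabp1 came within 1 mismatch, as 0.554% of all promoters do, and 4 genes (Fabp1, Etfa, Acot4 and Slc25a20) within 2, which is 12.5% of the 32 promoters against 3.86% of all. The last 100 bases before the start are shown for those with the match upstream and for Acot1, which followed Cyp4a14 closely without such a match (4 mismatches at best); capitals mark the match, which lies on the other strand in each.
Fabp1, chr6:71199779-71199878, plus strand: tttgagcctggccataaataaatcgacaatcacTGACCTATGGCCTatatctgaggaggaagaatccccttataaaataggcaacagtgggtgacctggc
Etfa, chr9:55512244-55512343, minus strand: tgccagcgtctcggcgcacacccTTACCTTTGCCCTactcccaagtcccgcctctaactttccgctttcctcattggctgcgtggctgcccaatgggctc
Acot4, chr12:84038279-84038378, plus strand: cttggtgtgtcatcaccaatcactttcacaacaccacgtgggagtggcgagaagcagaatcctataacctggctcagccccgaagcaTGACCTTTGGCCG
Acot1, chr12:84009402-84009501, plus strand: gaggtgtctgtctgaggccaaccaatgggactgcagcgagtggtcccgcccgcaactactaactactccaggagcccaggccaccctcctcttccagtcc
The match starts 67 bases before the start in Fabp1, 77 in Etfa and 13 in Acot4. The correlation with Cyp4a14 was 0.83 for Fabp1, 0.45 for Etfa, 0.57 for Acot4 and 0.70 for Slc25a20, the 4 genes within 2 mismatches, and 0.87 for Acot1, which was chosen for its correlation. Whether a near match goes with a closer relation was not tested. A match of letters is a description and not a bound site.

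Repeat spots give the spread of a difference over places on the array. The probes of Ppara, Cpt1a, Acaa2 and Pex11a were each printed on 7 to 10 spots that were measured on all arrays. TAKI minus WT ranged from 0.07 to 0.21 over 8 spots for Ppara, from -0.02 to 0.19 over 10 for Cpt1a, from -0.10 to 0.06 over 10 for Acaa2 and from -0.17 to -0.09 over 7 for Pex11a. The 21 genes with 1 spot in the upper rows of the array had a median TAKI minus WT of -0.04, and the 10 in the lower rows one of 0.02. These spreads over the spots of 1 probe are of the size of many differences among the 35 genes.

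**Figure D5:**
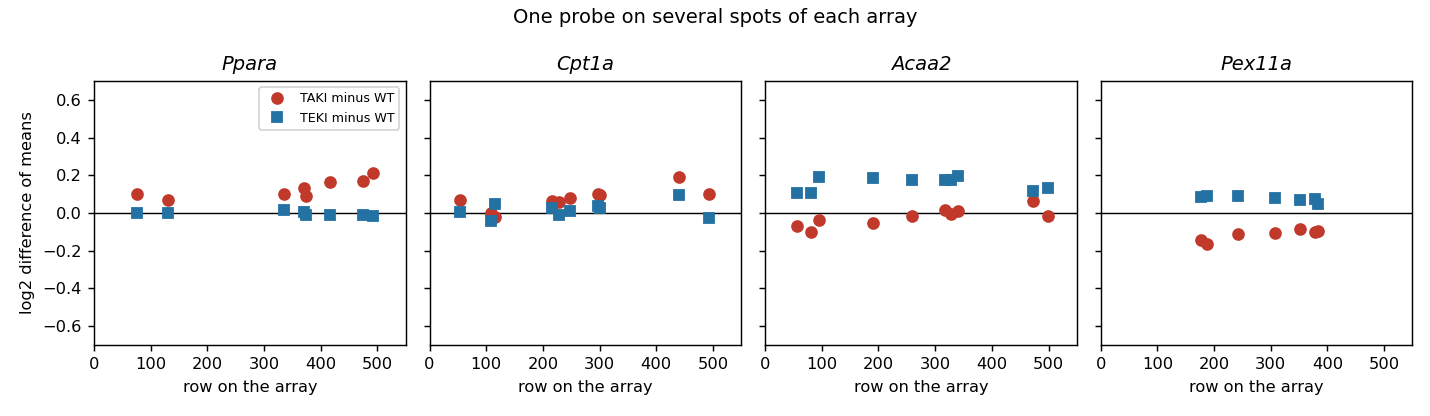
TAKI minus WT (red circles) and TEKI minus WT (blue squares) log2 differences of group means at each spot of 4 probes (y axis) against the row of the spot on the array (x axis). Ppara goes from 0.07 to 0.21 in TAKI minus WT, and the spots of Pex11a stay between -0.17 and -0.09.

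The arrays lay on 5 slides, and all 3 TEKI livers shared slide 3 with WT replicate 5 alone. Against WT replicate 5 by itself, the median TEKI difference of the 35 genes was -0.13, with 25 of 35 signs turned, and it has no replicate check. The share of probes well above background was 60.5% to 73.1% on 12 arrays and 86.8% on TEKI replicate 1. All 7 hepatocyte markers found were well above background on every array. The lymphocyte markers (8 of 8 well above background on every array, 2 called in TAKI minus WT) had a mean level, relative to each gene's mean, of -0.47 to -0.23 in WT livers, with TAKI livers at -0.03 to 0.63 and TEKI livers at -0.15 to 0.86, all above every WT liver (median differences from WT 0.45 and 0.50), and the pancreatic acinar markers (3 of 6 well above background on every array, 0 called) of -0.86 to 0.20 in WT and 0.24 to 1.24 in TEKI. Their part in the differences above was not tested.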

How the data were processed

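For liver RNA of 13 mice, each spot's processed intensity was deposited, made with Agilent Feature Extraction 9.5 (9.5.3.1 per the file headers), with background subtracted and spatial and multiplicative detrending on, per the file headers; no scaling between arrays was applied. The deposited table equals the scanner values (largest difference 0), so it is linear and uncentred, and it holds no differences between groups, so direction does not apply; its column medians were 66.1, 72.9, 49.1, 64.8 and 58.0 (WT), 70.1, 73.4, 72.6, 94.5 and 90.5 (TAKI) and 137, 66.3 and 56.1 (TEKI). Per the labels, 500 ng of total RNA was labelled with Cy3.

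From these, log2 intensities minus the 75th percentile of the array were computed with outlier spots left out, spots of one probe averaged (48 probes on 84 spots for the 35 genes) and the brightest probe per gene tested if well above background on at least 3 arrays. limma 3.58.1 in R 4.3.3 fitted 1 mean per genotype to all 13 arrays, leaving 10 residual degrees of freedom, and was tested on simulated data. Correlations were tested by permutation in Python 3.11.15. No array was left out; their number limits the precision. Named with values in every animal were Ppara, Cpt1a, Pdk4, Cyp4a10, Cyp4a14, Bdh1 and the 4 genes of smallest p per comparison; from the other pathway genes, those of the 2 smallest p per comparison. A few of these are left out of the text. The members and lists were chosen with earlier results of these data known. Replicate numbers did not pair the arrays (correlations of same-numbered deviations from -0.23 to 0.32).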

Additional observations from a re-analysis of the deposited data

Results flagged for a closer look

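Single livers stood apart from their group in 5 of the 70 groups of 5 livers (35 genes in WT and in TAKI), by a gap of more than Dixon's critical share of the group's range. Chance flags about 1 in 20 groups, and 6.95% of the groups of all genes were flagged. The lowest WT liver was replicate 2 for the carnitine carrier gene Slc25a20 (log2 level 3.45, the others 3.85 to 3.96) and replicate 1 for Hadh (5.77, the others 5.92 to 5.96). WT replicate 5 was highest for the electron transfer gene Etfa (6.33, the others 5.75 to 5.85) and lowest for Ucp2 (-1.15, the others -0.42 to -0.16). Ucp2 was also low in TAKI replicate 1 (-0.81, the others -0.02 to 0.20).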

How the results depend on the processing

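The count of called members stayed at 0 in 25 of 26 alternatives for TAKI minus WT, in all 27 tested for TEKI minus WT and in 24 of 26 for TEKI minus TAKI. The exceptions were array weights (1 member, Acads, in TAKI minus WT and 1 in TEKI minus TAKI, with 1 other pathway gene in TAKI minus WT) and normexp background correction (1 member, Acadl, in TEKI minus TAKI). Not all alternatives in these counts were separate checks. The deposited table repeats the reported fit, and leaving out a replicate of the genotype outside a comparison alters only the estimate of spread. Leaving out each replicate in turn gave 0 called members and 0 called pathway genes throughout, and medians of -0.07 to 0.06, -0.02 to 0.15 and 0.02 to 0.19; of the TEKI minus WT medians, that without TEKI replicate 3 turned negative. Scaling each array to its median gave member medians of -0.16, -0.36 and -0.16, with all genes at -0.15, -0.33 and -0.19; it moves all genes of an array alike. The member median minus that of all genes was -0.0035, -0.027 and 0.028 as reported, 0.063, 0.032 and 0.0077 with quantile normalization and 0.14, -0.056 and -0.14 with normexp. Slide as a fixed block gave -0.13 for TEKI minus WT. This is the same estimate as slide 3 alone, since all TEKI arrays lay on that slide, and it rests on 1 WT liver, replicate 5. Over all genes, the called count for TAKI minus WT was 968 with median scaling, 875 with quantile normalization, 238 with probes well above background on all 13 arrays, 1321 with only the groups compared and 2253 with array weights. For TEKI minus WT it was 2, 5 and 0 with median scaling, quantile normalization and normexp, 2 with no filter on dim probes, 0 with all 13 arrays well above background, 2 with array weights and 0 with slide as a fixed block. For TEKI minus TAKI it was 1122 with quantile normalization, 4109 with normexp, 891 with array weights and 295 with all 13 well above background. Without single replicates the all-gene counts ran from 286 (TAKI replicate 5) to 1295 (TEKI replicate 1), from 1 to 100 (TEKI replicate 2) and from 389 (TEKI replicate 3) to 1070 (TEKI replicate 1). The replicate block, for numbers that did not pair the arrays, gave 339 genes for TAKI minus WT and 0 for TEKI minus WT and 0 called members. Correlations with Cyp4a14 passing over 34 relations were 2 with quantile normalization and 2 relative to hepatocyte markers, and 16 to 23 without TEKI replicate 1 or TAKI replicate 4, both left out after the data were seen.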
